A study of Mus musculus with 6 samples.

Results

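The Wnt pathway was followed in hippocampal RNA of p300+/- mice, which are heterozygous for a deficiency in the acetyltransferase p300, and of wild-type littermates. It was read through 104 probe sets of 50 gene symbols among 45037 probe sets tested. Members were all probe sets annotated with a single symbol of a Wnt ligand, a Frizzled receptor, a secreted Sfrp or Dkk inhibitor, a Dishevelled protein, or 1 of a short list of coreceptors, destruction complex genes and nuclear partners. The rule is written in symbols and uses no measured value, but it was drawn up with earlier results of these data known. Tcf7, which the rule also names, had 0 probe sets with that symbol and was not analysed here. The name pattern also took in Fzd10os, an antisense gene beside Fzd10 that encodes no receptor.

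Wnt proteins are secreted lipid-modified ligands that bind a Frizzled receptor together with the coreceptors Lrp5 or Lrp6. The signal passes through Dishevelled and halts the destruction complex of Axin, Apc and Gsk3b, which otherwise marks beta-catenin for degradation. Stabilised beta-catenin enters the nucleus, binds TCF/LEF factors and recruits coactivators that include p300 and its relative CBP. In the hippocampus the pathway is known for its part in the birth of dentate granule cells and in synapse formation.

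In each genotype there were 3 Affymetrix Mouse Genome 430 2.0 arrays, each hybridised with total RNA pooled from 4 females aged 3 months, so that 12 mice per genotype entered the 6 arrays. Both genotypes were of the C57BL/6 strain. The sources used here do not give how the allele was made or in which cells it acts. Pools of 4 animals show the spread between pools, not between animals. Every value below is a log2 value relative to the median of that probe set over the 6 arrays, so differences between arrays can be read and levels of different probe sets cannot be compared. No source names the logarithm's base, which was taken as 2, and fold changes rest on that.

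Promoter windows of RefSeq (GRCm38.p6), each from 250 bases before to 50 bases after a gene start, were found for 33 member genes, 38 windows in all. The motif CTTTGAT or CTTTGAA, in either strand, was searched as a core of the TCF/LEF site. The windows printed here hold no full CREB element TGACGTCA, and shorter parts of that element were not searched. The TCF/LEF motif was present in 3 of 38 member windows (7.89%) and in 8.65% of 32851 windows of all genes. The 3 belonged to Wnt11, Wnt5b and Dkk1. The CREB element TGACGTCA was present in 1 member window, that of Dvl1, and in 1.79% of all windows. The median GC content was 71.0% in member windows, against 52.7% in all. The 250 bases before the start are shown 5′ to 3′ for the 3 genes with a TCF/LEF match, in capitals, and for Axin2, the feedback inhibitor most often used as a readout of beta-catenin signalling, whose window holds none. Wnt11 and Wnt5b have further start sites, whose windows hold no match. The windows lie at chr7:98834862-98835111, plus strand for Wnt11, chr6:119449387-119449636, minus strand for Wnt5b, chr19:30549497-30549746, minus strand for Dkk1 and chr11:108920099-108920348, plus strand for Axin2. The matches begin 51, 71 and 117 bases before the start in Wnt11, Wnt5b and Dkk1.
Wnt11: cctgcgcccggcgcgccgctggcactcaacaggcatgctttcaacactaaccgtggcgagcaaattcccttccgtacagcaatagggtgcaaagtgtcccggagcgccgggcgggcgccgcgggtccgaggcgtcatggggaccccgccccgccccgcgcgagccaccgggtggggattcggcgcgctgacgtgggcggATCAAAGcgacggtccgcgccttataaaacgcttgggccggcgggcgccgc
Wnt5b: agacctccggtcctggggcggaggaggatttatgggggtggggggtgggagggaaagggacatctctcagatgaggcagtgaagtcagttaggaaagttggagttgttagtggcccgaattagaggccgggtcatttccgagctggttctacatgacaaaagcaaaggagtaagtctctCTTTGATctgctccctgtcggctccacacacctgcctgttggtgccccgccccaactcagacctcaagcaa
Dkk1: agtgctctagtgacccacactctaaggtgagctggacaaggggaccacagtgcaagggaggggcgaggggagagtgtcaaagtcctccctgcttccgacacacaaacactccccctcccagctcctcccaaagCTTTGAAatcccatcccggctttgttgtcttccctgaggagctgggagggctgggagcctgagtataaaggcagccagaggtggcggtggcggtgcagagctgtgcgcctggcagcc
Axin2: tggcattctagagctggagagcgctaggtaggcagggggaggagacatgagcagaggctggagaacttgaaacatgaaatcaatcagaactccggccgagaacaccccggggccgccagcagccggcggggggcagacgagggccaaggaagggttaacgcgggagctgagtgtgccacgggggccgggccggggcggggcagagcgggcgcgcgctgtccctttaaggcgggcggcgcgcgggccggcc
The log2 fold changes of these genes, p300+/- minus wild-type, were 0.33 for Wnt11, 0.099 and 0.019 for Wnt5b, -0.046 and 0.015 for Dkk1, and 0.22 and 0.23 for Axin2. A match is a description of letters, and Axin2 sites outside this window were not searched.

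Ep300 itself, read by 1434765_at, lay at -0.26, -0.22 and -0.50 in p300+/- pools 1 to 3, against 0.22, 0.38 and 0.40 in wild-type pools 1 to 3. The log2 fold change was -0.66 ± 0.13 (SE), without passing the test over all probe sets (limma, adjusted p = 0.9999). Whether this probe set also detects RNA of the altered allele was not tested. Of 17 measured hippocampal neuron markers, 13 were in the brightest level class that the values allow to be inferred, from 8 to 16 on the log2 scale. Of all 45037 probe sets 12366 were in that class. The mean of these 17 was -0.0067, 0.025 and -0.16 in p300+/- pools, against -0.011, -0.21 and 0.040 in wild-type pools. Higher means in p300+/- pools were seen in 6 of 9 oligodendrocyte, 7 of 10 microglia and blood, 6 of 8 interneuron and 3 of 8 astrocyte markers. Wild-type pool 2 stood apart in choroid plexus markers, a tissue that borders the hippocampus. The mean of 16 such markers was 0.13, -0.079 and 0.40 in p300+/- pools, against -0.15, -2.08 and 0.25 in wild-type pools, and 16 of 16 had a higher mean in p300+/- pools. Of 19 vascular and meningeal markers 16 had a higher mean in p300+/- pools, and 1 was at an unadjusted p under 0.05. In 4 of the 19 all p300+/- pools lay above all wild-type pools. Of 13 thalamus and habenula markers, from a neighbouring region, 9 had a higher mean in p300+/- pools and 3 were at an unadjusted p under 0.05, with log2 fold changes of up to 0.61. The genotypes did not overlap in 3 of these 13, of which 2 were higher and 1, the LEF factor Lef1, was lower in p300+/- pools. Over all probe sets 1.22% were at an unadjusted p under 0.05, and the genotypes did not overlap in 5.39%. None of these markers passed (limma), and their part in the member values was not tested. Pool p300+/- 3 and wild-type pool 2 also moved together over the whole array, with r = 0.65 between their deviations from the genotype means over 45037 probe sets. Less RNA per cell and fewer cells of a type cannot be told apart in such pools.

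No Wnt pathway probe set passed the comparison of p300+/- with wild-type pools. Of the 104, 54 had higher and 50 lower means in p300+/- pools, and the log2 fold changes ran from -0.35 to 0.33 with a median of 0.0045. Over all 45037 probe sets the median was 0.0057, and 51.7% had a higher mean. The number passing an adjusted p of 0.05 was 0 of 104 (limma, adjusted p = 0.9999 for every member), where 0% of all probe sets passed. At an unadjusted p under 0.05 there were also 0 members, against 1.22% of all probe sets, 0.77% with a higher and 0.451% with a lower mean.

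The precision bounded how large a measured difference could have gone unseen. The median standard error of a member was 0.14 on the log2 scale. For 84 of the 104 probe sets (80.8%) the 95% interval lay wholly within a 1.5-fold change in either direction, and for 103 it lay within a 2-fold change. The exception was the Gsk3b probe set 1451020_at, whose interval ran from -1.08 to 0.75. Over all probe sets 74.2% had intervals within 1.5-fold. These intervals belong to single probe sets and were not widened for their number. Of the members, 24 were in the level class from 8 to 16, 68 in that from 4 to 8 and 10 in that from 2 to 4. The brightest class held 4 of 32 ligand and 2 of 29 receptor probe sets. Whether dim probe sets report the full size of a change in RNA was not tested, so narrow intervals there do not exclude larger changes.

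**Figure D1:**
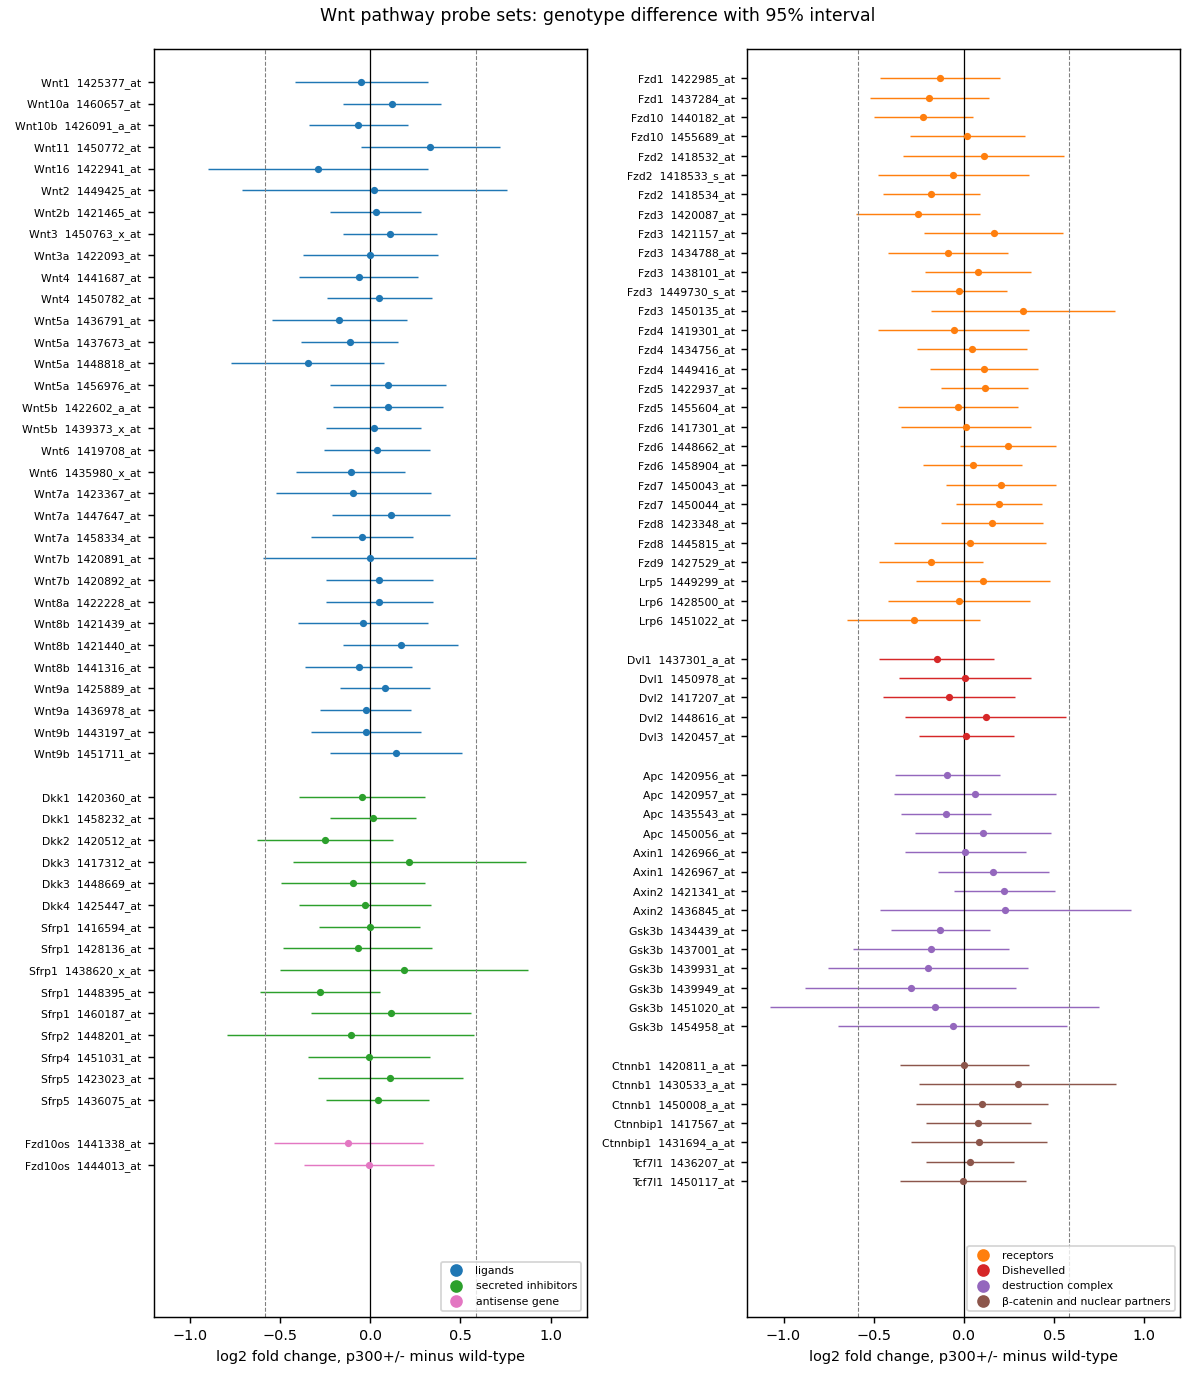
Log2 fold change (p300+/- minus wild-type) of each of the 104 Wnt pathway probe sets, with its 95% interval as a horizontal bar, coloured by role. Dashed lines mark a 1.5-fold change in either direction. Every interval crosses 0, the values run from -0.35 to 0.33, and the widest bar belongs to Gsk3b 1451020_at.

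The ligands were divided evenly between genotypes. They comprised 32 probe sets of 19 Wnt genes, with 17 higher and 15 lower means in p300+/- pools, a median log2 fold change of 0.0098 and 0 that passed. Wnt11, which acts mainly through beta-catenin-independent branches that steer cell movement, gave the highest value of any member. Its probe set 1450772_at stood at 0.019, 0.096 and 0.42 in p300+/- pools, against -0.019, -0.036 and -0.41 in wild-type pools. The genotypes did not overlap, but the gap between their nearest pools was small beside the spread within each genotype, and p300+/- 3 and wild-type 3 set most of the difference. The log2 fold change was 0.33 ± 0.16 (SE), a 1.26-fold difference with an interval of 0.965 to 1.64.

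Wnt5a, the most studied ligand of the beta-catenin-independent branches, gave the lowest value of any member through 1448818_at. That probe set stood at -0.58, -0.25 and 0.071 in p300+/- pools, against -0.071, 0.19 and 0.16 in wild-type pools. The p300+/- pools were widely spread and overlapped the wild-type range, and the log2 fold change was -0.35 ± 0.18 (SE). It was -0.18 without p300+/- 1 and -0.51 ± 0.16 (SE) without p300+/- 3. The 3 other Wnt5a probe sets lay between -0.17 and 0.099. Wnt8b, a ligand known from the embryonic cortical hem and hippocampal primordium, stood at 0.056, -0.041 and 0.17 in p300+/- pools and at 0.0056, -0.0056 and -0.33 in wild-type pools (1421440_at). Its 2 other probe sets were below 0, at -0.064 and -0.039.

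Among the other ligands, Wnt3a and Wnt3, both activators of beta-catenin signalling, had log2 fold changes of 0.00070 and 0.11. Wnt7a and Wnt7b, ligands known for roles in synapse and vessel formation, ranged from -0.093 to 0.11 over 3 probe sets and from -0.0030 to 0.051 over 2. Wnt16 had its outlying value in a single pool. It stood at -0.045, -0.0019 and 0.0019 in p300+/- pools, against -0.14, 0.92 and 0.046 in wild-type pools. Its log2 fold change of -0.29 ± 0.26 (SE) became 0.033 when wild-type pool 2 was left out. The remaining ligands (Wnt1, Wnt2, Wnt2b, Wnt4, Wnt5b, Wnt6, Wnt8a, Wnt9a, Wnt9b, Wnt10a and Wnt10b) lay between -0.11 and 0.14. Of these Wnt2 was the least precise, at 0.023 ± 0.31 (SE). It was 0.37 without wild-type pool 2 and -0.17 without p300+/- 3.

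Receptors held most of the probe sets in which the genotypes did not overlap. The Frizzled genes and the coreceptors Lrp5 and Lrp6 were read by 29 probe sets of 12 genes, of which 16 had higher and 13 lower means in p300+/- pools, with a median log2 fold change of 0.020. In 4 of them all p300+/- pools lay above all wild-type pools, where 3.19% of all probe sets did, and in 3 all lay below, where 2.2% did. None of the 7 passed (limma, adjusted p = 0.9999). Over all 104 members the counts were 7 above and 4 below, and 5.39% of all probe sets were apart in either direction.

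Fzd6, a receptor linked to planar polarity, had the smallest p of any member. Its probe set 1448662_at stood at 0.029, 0.13 and 0.13 in p300+/- pools, against -0.19, -0.029 and -0.22 in wild-type pools. The genotypes were apart by a narrow gap between p300+/- 1 and wild-type 2. The log2 fold change was 0.24 ± 0.11 (SE, interval -0.020 to 0.51), and it lay between 0.21 and 0.30 when any single pool was left out. The 2 other Fzd6 probe sets gave 0.012 and 0.048.

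Fzd7, a receptor that can signal through beta-catenin, gave nearly the same value in both of its probe sets. Probe set 1450044_at stood at 0.11, 0.077 and 0.078 in p300+/- pools, against -0.14, -0.10 and -0.077 in wild-type pools. Both genotypes were tight and did not overlap. The log2 fold change was 0.19 ± 0.10 (SE), or 1.14-fold with an interval of 0.969 to 1.35, and the second probe set, 1450043_at, gave 0.20 with overlap. It stood at -0.056, 0.19 and 0.21 in p300+/- pools, against -0.14, 0.056 and -0.18 in wild-type pools. The mean over both probe sets did not overlap, at 0.029, 0.13 and 0.15 in p300+/- pools and -0.14, -0.022 and -0.13 in wild-type pools.

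Fzd10 leaned the other way in 1 of its 2 probe sets. Probe set 1440182_at, in the dimmest level class (2 to 4), stood at -0.060, -0.022 and -0.14 in p300+/- pools, against 0.28, 0.15 and 0.022 in wild-type pools. All p300+/- pools lay below all wild-type pools. The difference was -0.22 ± 0.12 (SE) on the log2 scale, while the other probe set gave 0.020. The antisense gene Fzd10os gave -0.12 and -0.0069. Which strand each of these probe sets detects was not checked.

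The other receptor probe sets without overlap, and those of Fzd1 and Lrp6 given below, were named after their values were seen. Fzd5 (1422937_at, 0.11 ± 0.10) and Fzd8 (1423348_at, 0.16 ± 0.12) had all p300+/- pools above wild-type, and Fzd2 (1418534_at, -0.18 ± 0.11) and Fzd3 (1420087_at, -0.25 ± 0.15) had all below. Without wild-type pool 2 this Fzd2 value was -0.11 and this Fzd3 value -0.12. The Fzd3 probe set 1420087_at was in the dimmest level class (2 to 4). The other probe set of Fzd5 lay at -0.033 and that of Fzd8 at 0.031, and those of Fzd2 lay at 0.11 and -0.058. Fzd3, a receptor needed for the wiring of long axon tracts, was read by 6 probe sets that split 3 to 3 and ran from -0.25 to 0.33. Fzd1 lay at -0.13 and -0.19, Fzd4 between -0.057 and 0.11, and Fzd9 at -0.18. Averaged over its probe sets, Fzd1 stood at -0.090, -0.049 and -0.027 in p300+/- pools, below 0.12, 0.16 and 0.047 in wild-type pools. Among gene means 1.74% of all symbols lay below in this way and 2.98% above.

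Lrp6, the coreceptor that binds Axin once phosphorylated, gave -0.028 and -0.28, and Lrp5 gave 0.11. The lower Lrp6 probe set, 1451022_at, stood at 0.055, -0.065 and -0.078 in p300+/- pools, against 0.49, -0.055 and 0.32 in wild-type pools. Wild-type pool 2 sat within the p300+/- range, unlike the other wild-type pools. Without that pool the value was -0.43 ± 0.13 (SE), again without passing (limma, adjusted p = 0.974). Without p300+/- 3 it was -0.26 ± 0.19 (SE). The value without wild-type pool 1, the highest pool at 0.49, is not given, so the larger value is not read as a hidden decrease.

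**Figure D2:**
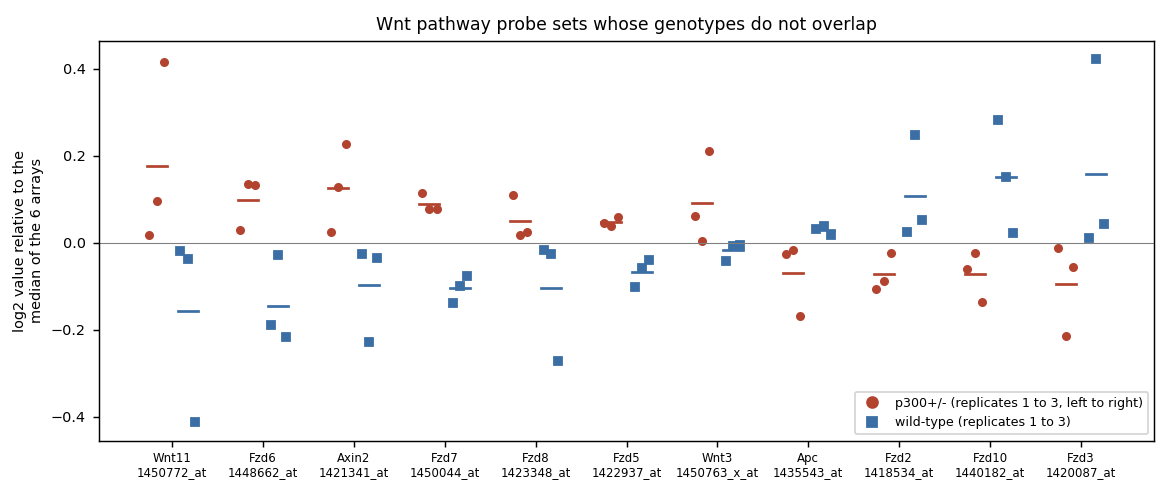
Log2 values relative to the median of the 6 arrays for the 11 Wnt pathway probe sets in which the pools of a genotype all lay on a single side of the other genotype (p300+/- circles, wild-type squares, replicates 1 to 3 from left to right, short lines for means). The 7 probe sets from Wnt11 to Wnt3 are higher in p300+/- pools and the 4 from Apc to Fzd3 are lower. Fzd7 has its lowest p300+/- pool at 0.077 and its highest wild-type pool at -0.077.

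Secreted inhibitors, which bind Wnt proteins (Sfrp) or the Lrp coreceptors (most Dkk), had 6 higher and 9 lower means among 15 probe sets of 8 genes, with a median log2 fold change of -0.0062 and 0 that passed. Sfrp1, a Wnt antagonist made by neural progenitors, gave the smallest p through 1448395_at. It stood at -0.23, -0.43 and 0.019 in p300+/- pools, against 0.14, -0.019 and 0.069 in wild-type pools. The pools p300+/- 1 and 2 were the lowest and p300+/- 3 lay among the wild-type pools, for a log2 fold change of -0.28 ± 0.14 (SE). This value was -0.17 without p300+/- 2 and -0.39 without p300+/- 3. The 4 other Sfrp1 probe sets ran from -0.069 to 0.19.

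The highest of these, 1438620_x_at, carried a suffix that marks possible binding to other transcripts. It stood at -0.14, -0.17 and 0.90 in p300+/- pools, against -0.26, 0.16 and 0.14 in wild-type pools. Its 0.19 ± 0.29 (SE) became -0.16 without p300+/- 3. Sfrp2 lay at -0.11, Sfrp4 at -0.0062 and Sfrp5 at 0.042 and 0.11.

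Dkk2 (1420512_at, level class 2 to 4) stood at -0.019, 0.019 and -0.17 in p300+/- pools, against 0.15, 0.49 and -0.065 in wild-type pools, with overlap and a difference of -0.25 ± 0.16 (SE) that was -0.10 without wild-type pool 2. Dkk3, a Dkk relative abundant in hippocampal neurons that does not act on Lrp6 like its kin, was low in a pool of each genotype. Its probe set 1417312_at stood at 0.048, 0.25 and -0.41 in p300+/- pools and at -0.048, -0.83 and 0.11 in wild-type pools. The log2 fold change of 0.22 ± 0.28 (SE) became -0.070 without wild-type pool 2, and the second Dkk3 probe set gave -0.096. Dkk1, a strong inhibitor that Wnt signalling itself induces, gave -0.046 and 0.015, and Dkk4 gave -0.029.

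Dishevelled genes, which relay the receptor signal, showed no shared lean. Dvl1 gave -0.15 ± 0.14 (SE) and 0.0062, Dvl2 gave -0.083 ± 0.16 and 0.12 ± 0.19, and Dvl3 gave 0.014. The Dvl1 probe set 1437301_a_at stood at 0.085, -0.094 and -0.31 in p300+/- pools, against 0.14, -0.047 and 0.047 in wild-type pools. The Dvl2 probe set 1448616_at was at 0.050, -0.12 and 0.094 in p300+/- pools and at 0.22, -0.51 and -0.050 in wild-type pools. Probe set 1417207_at of Dvl2 was at -0.0080, 0.0080 and -0.26 in p300+/- pools and at 0.11, -0.28 and 0.15 in wild-type pools. Both Dvl2 values turned with 1 pool, 1448616_at to -0.076 without wild-type 2 and 1417207_at to 0.0043 without p300+/- 3.

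In the destruction complex, Axin2 had higher and Gsk3b lower means in p300+/- pools in every probe set, and neither gene passed. The 14 probe sets of Apc, Axin1, Axin2 and Gsk3b had 6 higher and 8 lower means and a median log2 fold change of -0.077. Probe sets of 1 gene read the same pools and are not replicates.

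Axin2, a scaffold that beta-catenin induces and that then restrains the pathway, gave 0.22 ± 0.12 and 0.23 ± 0.30 (SE). Probe set 1421341_at stood at 0.026, 0.13 and 0.23 in p300+/- pools, against -0.026, -0.23 and -0.035 in wild-type pools. The genotypes did not overlap, and the value stayed between 0.16 and 0.27 when any single pool was left out. Probe set 1436845_at stood at 0.34, -0.020 and -0.29 in p300+/- pools, against 0.020, -0.88 and 0.21 in wild-type pools. There the difference lay in wild-type pool 2, and without it the value was -0.10. This is the pool low in choroid plexus markers, whose part in the Axin2 value was not tested.

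Gsk3b, the kinase that marks beta-catenin for degradation, was read by 6 probe sets with log2 fold changes from -0.30 to -0.062. The lowest, 1439949_at, stood at 0.38, -0.29 and -0.45 in p300+/- pools, against 0.52, -0.11 and 0.11 in wild-type pools. Replicates 2 and 3 of p300+/- were below all wild-type pools and replicate 1 was not. A similar order was seen for 1439931_at, at 0.41, -0.15 and -0.38 in p300+/- pools, against 0.48, -0.13 and 0.13 in wild-type pools. The log2 fold change was -0.30 ± 0.25 (SE) for 1439949_at and -0.20 ± 0.24 (SE) for 1439931_at. Single pools changed the size of both log2 values by a factor of more than 1.5. That of 1439949_at was -0.12 without wild-type pool 1, -0.13 without p300+/- 3 and -0.54 without p300+/- 1. That of 1439931_at was -0.032 without p300+/- 3, -0.042 without wild-type pool 1 and -0.42 without p300+/- 1.

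Probe set 1437001_at stood at 0.092, -0.097 and -0.092 in p300+/- pools, against 0.36, -0.25 and 0.34 in wild-type pools. Its -0.18 ± 0.18 (SE) became -0.39 ± 0.13 without wild-type pool 2 (limma, adjusted p = 0.974). Without wild-type pool 1 it was -0.079. Probe set 1434439_at, the tightest, stood at 0.011, -0.21 and -0.011 in p300+/- pools and at -0.014, 0.11 and 0.083 in wild-type pools, a difference of -0.13 ± 0.12. That difference was -0.060 without p300+/- 2.

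The 2 remaining Gsk3b probe sets were opposed on the same pair of pools. Probe set 1451020_at stood at 0.11, -0.11 and -0.90 in p300+/- pools and at 0.24, -0.97 and 0.31 in wild-type pools. Probe set 1454958_at stood at 0.027, -0.42 and 0.36 in p300+/- pools and at -0.027, 0.53 and -0.36 in wild-type pools. Pools p300+/- 3 and wild-type 2 were the lowest in the first and the highest in the second. Their genotype values of -0.16 ± 0.39 and -0.062 ± 0.27 (SE) turned to as high as 0.14 (without p300+/- 3; also 0.026 and 0.062 without wild-type 1 or 3) and 0.18 (without wild-type 2; also 0.14 without p300+/- 2).

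Apc, the scaffold that is lost in colon tumours, had 2 higher and 2 lower probe sets between -0.10 and 0.10. Probe set 1435543_at stood at -0.026, -0.018 and -0.17 in p300+/- pools, against 0.032, 0.039 and 0.018 in wild-type pools, without overlap. Its value of -0.10 was -0.051 without p300+/- 3. Probe set 1420956_at stood at -0.10, 0.11 and -0.18 in p300+/- pools and at -0.053, 0.11 and 0.053 in wild-type pools. In both, p300+/- 3 was the lowest pool.

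Probe set 1420957_at of Apc stood at 0.075, 0.27 and -0.41 in p300+/- pools and at -0.075, -0.25 and 0.075 in wild-type pools, and 1450056_at at 0.23, 0.16 and -0.26 in p300+/- pools and at 0.096, -0.18 and -0.096 in wild-type pools. The genotypes overlapped in both. Their values were 0.063 ± 0.19 and 0.10 ± 0.16 (SE), and the first became -0.084 without p300+/- 2 and -0.020 without wild-type 2. Axin1, the constitutive scaffold, gave 0.0082 and 0.16 ± 0.13. Its probe set 1426967_at stood at 0.023, -0.023 and 0.20 in p300+/- pools, against -0.073, -0.27 and 0.051 in wild-type pools, with overlap.

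**Figure D3:**
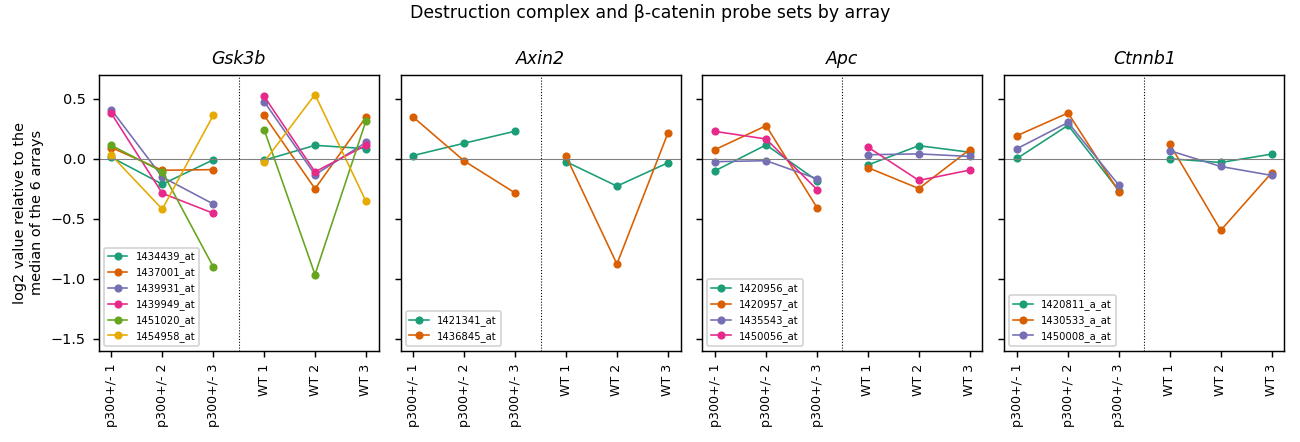
Log2 values relative to the median of the 6 arrays for every probe set of Gsk3b, Axin2, Apc and Ctnnb1 on the 3 p300+/- arrays (left of the dotted line) and the 3 wild-type arrays; lines join the values of a probe set within a genotype and carry no order. The Gsk3b probe sets 1451020_at and 1454958_at part on p300+/- 3 (-0.90 and 0.36) and wild-type 2 (-0.97 and 0.53).

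Beta-catenin and its nuclear partners had higher means in 6 of 7 probe sets, with a median log2 fold change of 0.081 and 0 that passed. Ctnnb1, the gene of beta-catenin, was read by 3 probe sets, at 0.0029 ± 0.15, 0.30 ± 0.23 and 0.10 ± 0.16 (SE). Probe set 1430533_a_at, the highest, stood at 0.19, 0.38 and -0.28 in p300+/- pools, against 0.12, -0.60 and -0.12 in wild-type pools. Wild-type pool 2 was the lowest, and without it the value was 0.099.

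Probe set 1420811_a_at stood at 0.0016, 0.28 and -0.27 in p300+/- pools and at -0.0016, -0.032 and 0.037 in wild-type pools. Probe set 1450008_a_at stood at 0.083, 0.30 and -0.22 in p300+/- pools and at 0.066, -0.066 and -0.14 in wild-type pools. In all 3 probe sets p300+/- 2 was the highest pool, and the genotypes overlapped. Without p300+/- 2 the value of 1420811_a_at was -0.13 and that of 1450008_a_at was -0.023, and without wild-type 2 that of 1420811_a_at was -0.014.

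Ctnnbip1, whose product keeps beta-catenin from TCF factors, gave 0.081 and 0.084, values that were 0.0064 and -0.034 without p300+/- 3. Its probe set 1417567_at stood at 0.081, -0.13 and 0.20 in p300+/- pools, against 0.014, -0.014 and -0.094 in wild-type pools. The pools overlapped. Tcf7l1, a TCF factor that acts largely as a repressor, gave 0.035 and -0.0049.

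Array by array, the Wnt pathway probe sets were spread most in p300+/- 3 and wild-type 2. The SD over the 104 values was 0.15, 0.15 and 0.24 in p300+/- pools 1 to 3, against 0.16, 0.29 and 0.17 in wild-type pools 1 to 3. The medians stayed near 0, from -0.018 in p300+/- 2 to 0.018 in p300+/- 1. The value farthest from 0 lay on p300+/- 3 or wild-type 2 for 53 of the 104 probe sets (51.0%), where the same held for 52.8% of all probe sets. The members thus had their extreme values on those pools about as often as the whole array did.

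**Figure D4:**
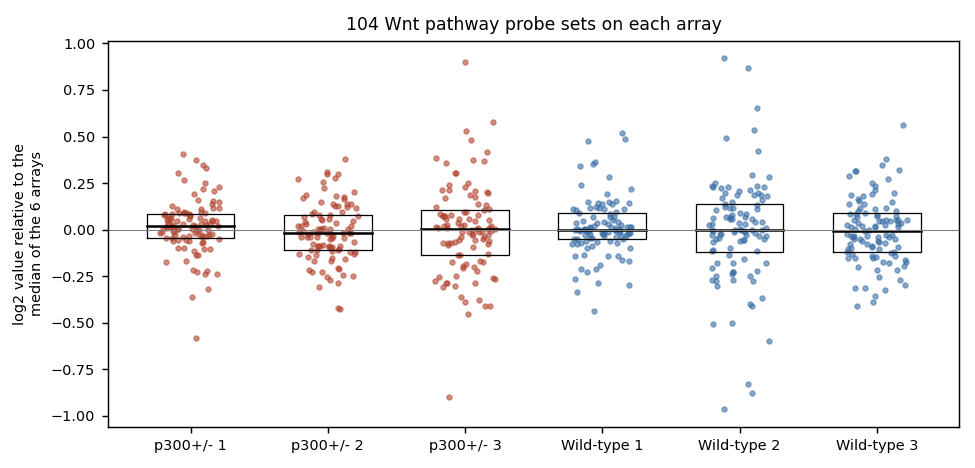
Log2 values of the 104 Wnt pathway probe sets on each array, relative to each probe set's median over the 6 arrays, with the 3 p300+/- arrays on the left; boxes span the middle 50% and thick lines are medians. The medians lie between -0.018 and 0.018, and the widest clouds are those of p300+/- 3 (SD 0.24) and wild-type 2 (SD 0.29).

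Pools p300+/- 3 and wild-type 2 were together below the other 4 pools in 15 members and together above them in 15, in all 28.8%, where 37.1% of all probe sets showed either. Those below included both probe sets of Wnt7b and of Dkk3, 2 of Apc, 2 of Ctnnb1 and 1 each of Axin2, Dvl1, Dvl2, Lrp6 and Wnt4. Those above included Wnt2, Wnt2b, Wnt3a, Wnt10b, both probe sets of Wnt6, Sfrp2 and Sfrp4. Among receptors the count was 3 of 29 (10.3%), and among secreted inhibitors it was 7 of 15 (46.7%). The difference between these role groups was not tested. The correlation of the deviations of p300+/- 3 and wild-type 2 from their genotype means was 0.57 over the 104 members, and that of p300+/- 1 and wild-type 1 was 0.65. These values share arrays and depth of signal and are given as descriptions.

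Most members turned in sign with at least 1 single pool left out. Of the 104 probe sets, 47 kept the sign of their genotype difference when each of the 6 pools was left out in turn. The same count over all probe sets is not given, so the members cannot be set against the whole array in this. Wild-type 2 turned the most, 28, followed by p300+/- 3 with 24. Of 33 genes with more than 1 probe set, 13 had all their probe sets on a single side and 20 had them on both.

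The wider pathway gave the same count of 0. Lists of secretion and surface proteins, secreted inhibitors, cytoplasmic regulators, nuclear factors, the planar polarity and calcium branches, and frequent targets of beta-catenin and TCF/LEF held 116 measured genes outside the members, each read by its first probe set. Of these, 64 had higher and 52 lower means in p300+/- pools, with a median log2 fold change of 0.024, and 0 passed (limma). At an unadjusted p under 0.05 there was 1, against 1.22% of all probe sets. It was Rspo3, whose secreted product strengthens Wnt signals by shielding Frizzled receptors from removal. Rspo3 stood at -0.055, -0.10 and -0.21 in p300+/- pools, against 0.055, 0.25 and 0.16 in wild-type pools, without overlap, a log2 fold change of -0.28 ± 0.11 (SE; limma, adjusted p = 0.9999).

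In the same list of 19 secretion and surface genes, 8 were higher and 11 lower, and Adgra2, a coreceptor for Wnt7 in brain vessels, was at 0.24 ± 0.14 (SE). Of 19 nuclear genes 11 were higher and 8 lower. Hbp1, a repressor of TCF targets, stood at 0.0018, 0.52 and 0.37 in p300+/- pools, against -0.0018, -0.0083 and -0.11 in wild-type pools. The genotypes did not overlap there, but p300+/- 1 and wild-type 1 nearly met. Lef1, the LEF factor itself and a target of the pathway, stood at -0.019, -0.14 and -0.084 in p300+/- pools, against 0.019, 0.12 and 0.17 in wild-type pools, a difference of -0.19 ± 0.11.

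Of 26 cytoplasmic genes 15 were higher and 11 lower, with Nkd2, an antagonist that binds Dishevelled, at 0.19 ± 0.12 and the casein kinase gene Csnk1g1 at -0.19 ± 0.13 (SE). Of 25 planar polarity and calcium genes 15 were higher and 10 lower, with Prickle1 at 0.28 ± 0.13 and Vangl2 at 0.32 ± 0.17, both core polarity genes. Of 9 further secreted inhibitors 4 were higher and 5 lower, with Serpinf1 at 0.19 ± 0.13 and Sost, known as an Lrp5 and Lrp6 antagonist of bone, at 0.17 ± 0.13. The highest value of that list, 0.67, was that of Sostdc1, which stood at -1.86 in wild-type pool 2 (named after its values were seen). Sostdc1 was also counted among the choroid plexus markers, and Lef1 among the thalamus and habenula markers. None of these passed (limma).

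Frequent target genes of beta-catenin split 14 to 12 with a median of 0.023. Whether these genes report on the output of the pathway in hippocampal pools was not tested. After Lef1 the smallest p belonged to Neurod1, a factor of granule cell differentiation, at -0.17 ± 0.13 (SE). It stood at -0.22, 0.0025 and -0.029 in p300+/- pools, against -0.0025, 0.26 and 0.0065 in wild-type pools, with overlap. The cyclin gene Ccnd1 was at -0.10 ± 0.23, Myc at -0.13 ± 0.16 and Lgr5 at 0.035 ± 0.14 (chosen after their values were seen). Crebbp, the gene of CBP, was read by 4 probe sets at -0.034 ± 0.14, -0.035 ± 0.11, -0.51 ± 0.37 and -0.13 ± 0.13. The first of these was 0.056 without p300+/- 3 and 0.022 without wild-type 3.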

How the data were processed

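Hippocampal RNA was measured on 6 Affymetrix Mouse Genome 430 2.0 arrays. Per the labels' protocols, the authors extracted RNA with Trizol, cleaned it on RNeasy columns, pooled 4 animals per array and normalized the data in GeneSpring GX, with no version, summarization or normalization step stated. The deposited log2 values are centred on each probe set's median over the 6 arrays (within 1e-06 of 0), and their base was taken as 2 because 98.4% of probe sets lie on binary grids of single-precision numbers from 2 to 16. The same grids give the coarse level classes. A level filter could not be applied to centred values, so these classes took its place.

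Of 45101 probe sets 64 controls were left out. The platform annotation gave a single symbol to 34945, several to 932 and none to 9160. Updating symbols through gene identifiers left the same 104 members. The difference p300+/- minus wild-type was fitted with limma 3.58.1 in R 4.3.3 (lmFit, eBayes; two-sided, Benjamini-Hochberg over 45037 probe sets, threshold 0.05), without covariates, and the fit was tested on simulated data. An SE is limma's moderated standard error. The number of arrays limits the precision.

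Probe sets named in full were, per role, the 3 with the smallest p, every probe set of Ctnnb1, Axin2, Gsk3b and Apc, and the 3 members with the widest gap between 1 pool and the other 5; from each other list the 2 genes with the smallest p. Members and lists were chosen with earlier results of these data known. Figures were drawn with matplotlib 3.10.9.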

Additional observations from a re-analysis of the deposited data

How the results depend on the processing

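The count of Wnt pathway members that passed was 0 under every alternative run: quantile normalization, median centring, robust moderation, array weights, the replicate block, omission of probe sets with the suffix s, x or a, level classes from 4 to 16 alone, a threshold of 0.1, gene means, updated symbols, each pool left out, and omission of both p300+/- 3 and wild-type 2. The counts over all probe sets and over the other lists were 0 as well. Members at an unadjusted p under 0.05 numbered 7 with array weights, 5 without both pools, 4 without wild-type 2, 2 without p300+/- 3, 1 without p300+/- 1, 1 with quantile normalization and 0 elsewhere. The share of all probe sets at that p is not given for these fits. The member counts therefore cannot be set against the whole array and are not read as a result about the pathway.

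The member median of 0.0045 was 0.0199 without both pools and ran from 0.0021 to 0.028 when single pools were left out. The fit with the replicate block gave 0.0045 as well, with 0 members and 0 probe sets passing and 604 probe sets at an unadjusted p under 0.05, against 550 without the block. Same-numbered pools correlated at 0.61, -0.23 and -0.47 in their deviations from the genotype means, so the replicate number was not taken to pair samples. The cytoplasmic list median of 0.013 was -0.038 without both pools. The secretion and surface list median of -0.029 was 0.037 with array weights. With single pools left out, list medians ran from -0.035 to 0.085 (cytoplasmic), -0.10 to 0.15 (nuclear), 0.0074 to 0.075 (polarity and calcium), -0.069 to 0.067 (secreted inhibitors), -0.069 to 0.056 (secretion and surface) and -0.043 to 0.046 (targets).

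Of 36 named probe sets, 12 turned in sign when a pool was left out. Their values then ran from -0.50 to 0.033 (Wnt16), -0.16 to 0.37 (Sfrp1 1438620_x_at), -0.070 to 0.41 (Dkk3 1417312_at), -0.22 to 0.0043 (Dvl2 1417207_at), -0.076 to 0.29 (Dvl2 1448616_at), -0.084 to 0.26 (Apc 1420957_at), -0.10 to 0.44 (Axin2 1436845_at), -0.58 to 0.14 (Gsk3b 1451020_at), -0.26 to 0.18 (Gsk3b 1454958_at), -0.13 to 0.14 (Ctnnb1 1420811_a_at), -0.023 to 0.24 (Ctnnb1 1450008_a_at) and -0.13 to 0.056 (Crebbp 1434633_at). Those of Apc 1420956_at ran from -0.18 to -0.029. Without a change of sign, single pools also changed the size of some log2 fold changes by a factor of more than 1.5. This factor compares log2 values and is not a fold change of expression. It held for Apc 1450056_at (0.013 without p300+/- 1 and 0.26 without p300+/- 3) and Axin1 1426967_at (0.077 without wild-type 2). Further cases were Ctnnb1 1430533_a_at (0.099 without wild-type 2) and Dvl1 1437301_a_at (-0.050 without p300+/- 3 and -0.25 without p300+/- 1). So were Gsk3b 1437001_at (-0.39 without wild-type 2 and -0.079 without wild-type 1), Wnt8b 1421440_at (0.062 without wild-type 3) and Wnt11 (0.20 without wild-type 3). Apc 1435543_at (-0.051 without p300+/- 3), Gsk3b 1434439_at (-0.060 without p300+/- 2) and Sfrp1 1448395_at (-0.17 without p300+/- 2) belonged here too. Crebbp ran from -0.073 to -0.00099 (1435224_at), -0.86 to -0.27 (1436983_at) and -0.18 to -0.028 (1459804_at). Wnt5a, Dkk2, Ctnnbip1 and other Gsk3b cases are given above. Dvl2 1448616_at also turned with array weights (-0.10) and without both pools (-0.12). Without both pools Apc 1420956_at (0.0064), Wnt16 (0.025) and Sfrp1 1438620_x_at (-0.088) turned as well. The cause was not tested.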

Other observations

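Some Wnt genes lie side by side in the genome, as 4 pairs of members with neighbouring starts among protein-coding genes of RefSeq (GRCm38.p6). Wnt1 and Wnt10b had log2 fold changes (p300+/- minus wild-type) of -0.049 and -0.067. Wnt6 lay at -0.11 and 0.036 over 2 probe sets and its neighbour Wnt10a at 0.12. Wnt9a lay at 0.081 and -0.025 and its neighbour Wnt3a at 0.00070. Wnt9b lay at 0.14 and -0.024 and its neighbour Wnt3 at 0.11. None of these probe sets passed the test (limma, adjusted p = 0.9999).

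Averaged over all probe sets of a gene, 3 of the 50 member symbols had all p300+/- pools above all wild-type pools, where 2.98% of 18193 symbols did, and 1 had all below, where 1.74% did. The 3 were Wnt11, Wnt3 and Fzd7, at 0.33, 0.11 and 0.20, and the 1 was Fzd1 at -0.16. Wnt11 and Wnt3 were each read by 1 probe set. That of Wnt3, 1450763_x_at, carried the suffix x and was in the dimmest level class (2 to 4). Its nearest pools were p300+/- 2 at 0.0042 and wild-type 3 at -0.0042. None of these gene means passed (limma, adjusted p = 0.9998).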
